A study of Mus musculus with 4 samples.

Results

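Cartilage spots of the fetal mouse head were selected on their reading of 5 cartilage matrix genes, and 300 of 5901 usable spots (5.08%) were chosen. A usable spot lay under tissue and held at least 2000 unique molecular identifiers (UMIs, 1 for each captured molecule). Its score was the mean of log2(1 + 10000 × UMIs of the gene / UMIs of the spot) over Col2a1, Matn1, Acan, Col9a1 and Cnmd, and the 300 highest scores of all capture areas pooled made the group. The other 5601 usable spots are called the other spots here.

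The spots come from a study of palate bone formation, in which coronal sections through the mid-palate of whole heads were placed on barcoded arrays by the Visium workflow for formalin-fixed, paraffin-embedded tissue. All embryos were wild-type, on the C57BL/6J background, and were taken at embryonic day 14.5 (E14.5) or embryonic day 15.5 (E15.5). Each stage had 2 capture areas, 1 labelled replicate 1 and holding 1 section, and 1 labelled replicates 2,3,4 and holding 3 sections. The sections of a shared area are named A, B and C here by their place on the array, since no label ties them to a replicate number.

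Cartilage is a tissue of chondrocytes set in a matrix of type II, IX and XI collagen fibrils and of aggrecan, a large sulfated proteoglycan that binds water and is held to hyaluronan by link proteins. Chondrocyte identity rests on the transcription factor Sox9, which acts with Sox5 and Sox6. In the fetal head, cartilage built by cranial neural crest cells forms the nasal capsule, parts of the skull base and the rod of the lower jaw. Some of it persists, and some passes through hypertrophy, marked by type X collagen, and gives way to bone.

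Levels are given as CPM, the UMIs of a gene divided by all UMIs, both summed over the spots of a group in 1 capture area, times 1000000. Series of 4 CPM values are given in the order E14.5 replicate 1, E14.5 replicates 2,3,4, E15.5 replicate 1 and E15.5 replicates 2,3,4. The cartilage spots held 374531, 5047184, 1950496 and 7147538 UMIs in the 4 areas. The first of these sums was the lowest because E14.5 replicate 1 had 35 cartilage spots with a median of 6526 UMIs, against medians of 47449, 76770 and 52361 in the other areas. Section A of the shared E14.5 area was shallow as well, with a median of 19168 UMIs in its cartilage spots against 75618 and 84695 in sections B and C. A spot holds several cells, so a level can differ through fewer chondrocytes or through less RNA per chondrocyte, and these cannot be told apart. Pairs of areas shared 540 to 1388 array barcodes, because every array carries barcodes of the same fixed list.

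The 5 genes of the rule set the membership, so their values are a description. Col2a1, which encodes the type II collagen chain, read 22660, 23050, 25761 and 23290 CPM in the cartilage spots and 1005, 1376, 1157 and 1357 CPM in the other spots. Matn1, a matrilin that bridges collagen and proteoglycan, read 1941, 1068, 1447 and 1290 CPM against 59.0, 35.1, 36.6 and 49.7 CPM. Both genes were far higher in the cartilage spots in each area, with the ratio of Matn1 running from 25.9 to 39.6 and that of Col2a1 from 16.7 to 22.6. Acan (aggrecan) lay between 473 and 1020 CPM, Col9a1 (a type IX collagen chain) between 3351 and 4379 CPM and Cnmd (chondromodulin, an inhibitor of vessel growth) between 663 and 1036 CPM. The median ratios of these genes over the areas were 24.1, 22.7 and 24.5. The score ran from 5.85 in the top spot, a spot of E14.5 section B with 4420 UMIs of Col2a1 among 78837, down to 3.60 in the last chosen spot and 3.59 in the first one left out. The last chosen spot held 386 Col2a1, 19 Matn1, 6 Acan, 131 Col9a1 and 18 Cnmd UMIs, and the first one left out, a shallow spot of 4106 UMIs, held 67, 1, 2, 5 and 2. Between scores of 3 and 4 lay 205 usable spots, of which 68 were chosen, so the cut passed through a continuous range.

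Every area and every section held cartilage spots. They made up 35 of 859 usable spots in E14.5 replicate 1 (4.07%, exact 95% binomial interval 2.85 to 5.62), 98 of 2104 in E14.5 replicates 2,3,4 (4.66%, 3.80 to 5.65), 26 of 988 in E15.5 replicate 1 (2.63%, 1.73 to 3.83) and 141 of 1950 in E15.5 replicates 2,3,4 (7.23%, 6.12 to 8.47). The intervals cover counting error only. The E15.5 areas held both the lowest and the highest share, with the E14.5 areas in between, and an exact permutation test of 2 areas against 2 cannot go below a two-sided p of 0.333. Among sections the share went from 2.83% in E14.5 section C to 10.1% in E15.5 section C. In all, 167 of the 300 spots (55.7%) were at E15.5, where 49.8% of the usable spots lay.

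The chosen spots were not scattered. Of the places touching a cartilage spot, 47.2% were cartilage themselves, and the 300 spots fell into 42 connected groups. Of these, 20 groups of at least 5 spots, called patches here, held 250 of the spots, 10 at each stage, and 11 groups were a single spot. The largest patch had 44 spots and lay at the low array rows of E15.5 section C. On the map most patches were narrow bands, in several sections 1 on each side of the middle.

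**Figure D1:**
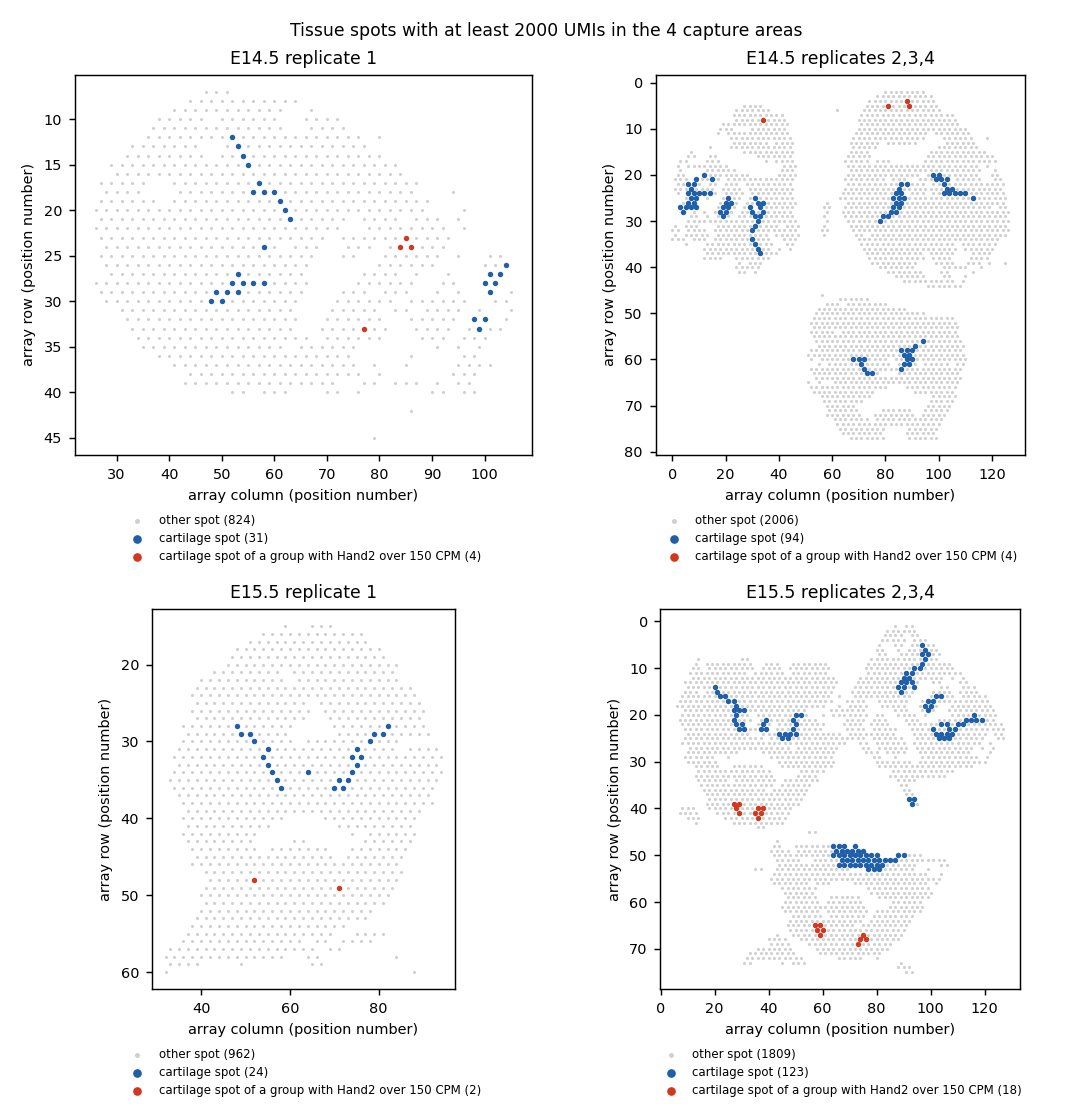
Array maps of the 4 capture areas, with the array column on the x axis and the array row on the y axis (position numbers). Each point is a usable spot, in grey for the other spots, in blue for cartilage spots, and in red for the 28 cartilage spots of connected groups with over 150 CPM of Hand2, which stand apart from the blue bands.

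Many genes the rule did not use were high in the same spots. The genes compared were the 4931 with at least 20 UMIs in the cartilage spots of each area and any UMIs in the other spots. Of these, 97 (1.97%) were at least 2-fold higher in the cartilage spots in all 4 areas, 30 (0.608%) at least 5-fold and 22 (0.446%) at least 10-fold, the 5 genes of the rule included. The median ratio of the 4931 genes was 0.983. The 20 genes with the highest lowest-area ratio, the rule's genes aside, were mostly matrix or secreted products. No test is given, because the same spots were chosen on genes that go with these. Leaving out the shallow E14.5 replicate 1, so that more genes met the minimum, raised the count to 165.

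The collagens of cartilage fibrils were higher as a set: all 7 of 7 were at least 2-fold higher in all 4 areas, with a median ratio of 16.1. Col2a1 and Col9a1, which are genes of the rule, are in this count and median, so their part was fixed by the choice of spots. Col9a3 read 5375, 3987, 4571 and 4043 CPM in the cartilage spots against 243, 223, 191 and 232 CPM, and Col9a2 read 2777, 4275, 3830 and 3667 CPM against 147, 318, 203 and 307 CPM. Col11a2, a chain of type XI collagen, had a median ratio of 9.25, and Col27a1, a fibrillar collagen of young cartilage, one of 6.01. The lowest of the set was Col11a1, the partner of Col11a2, at 3.52, and its values in the other spots, 141 to 291 CPM, were well above zero.

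Of 19 proteoglycans, link proteins, matrilins and small matrix proteins, 13 passed the UMI filter and all 13 were at least 2-fold higher, with a median ratio of 20.8. The 13 include Acan, Matn1 and Cnmd, genes of the rule, whose part was likewise fixed by the choice of spots. Hapln1, the link protein that fixes aggrecan to hyaluronan, read 1153, 494, 793 and 1269 CPM against 54.0, 26.7, 34.9 and 57.5 CPM. Matn3 and Matn4, further matrilins, had ratios of 20.8 to 29.3 and of 11.0 to 16.4, and Comp, a pentameric matrix protein that binds collagen, one of 18.8. Snorc, a small transmembrane chondroitin sulfate proteoglycan of chondrocytes, varied between areas, with ratios from 16.1 to 39.6. Chad, a leucine-rich matrix protein that binds type II collagen, and its relative Chadl stood at 12.9 and 13.0. Of the 6 members that did not pass, Epyc, Ucma, Cilp2 and Otor held 31 to 167 UMIs over all the cartilage spots, Cilp held 34 with a median ratio of 0.492, and Matn2, a matrilin made in many tissues, stood at 0.983 with 1318 UMIs.

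Several of the highest ratios belonged to genes outside these lists. Cytl1, a small secreted protein of chondrocytes, read 259, 151, 193 and 143 CPM in the cartilage spots against 8.65, 5.76, 7.11 and 6.64 CPM in the other spots. Susd5 had a median ratio of 27.3, Meltf, an iron-binding surface protein also called melanotransferrin, one of 22.1, and Mia, a secreted cartilage protein, one of 15.6. Ncmap varied little between areas, with a median of 16.1 and a highest ratio of 17.1. Tspan8, a tetraspanin, was uneven, at 26.1 in E14.5 replicate 1 and no more than 9.21 elsewhere. S100b, a calcium-binding protein made by both glia and chondrocytes, was 10.5-fold higher by its median.

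**Figure D2:**
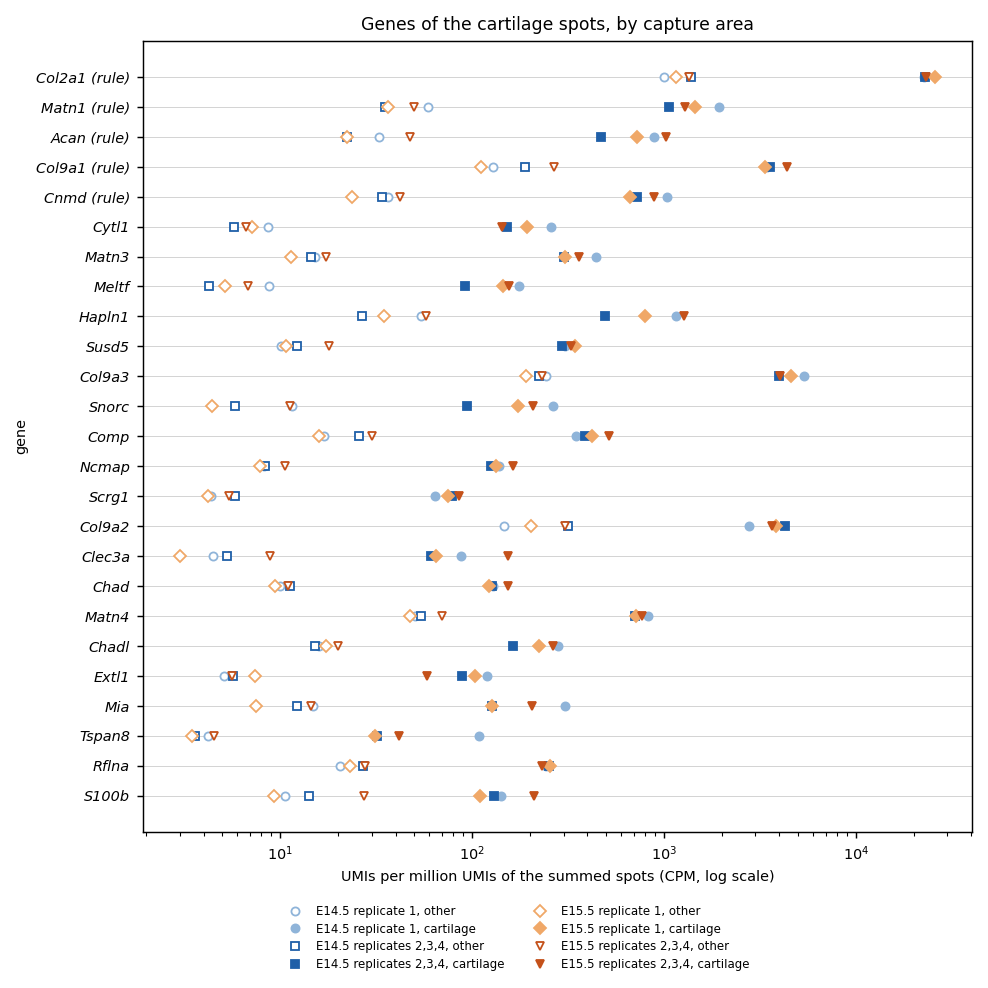
CPM on a log axis (x) of the 5 genes of the rule and the 20 named genes (y), in the cartilage spots (filled) and the other spots (open) of the 4 capture areas. For each gene the filled points of all areas lie to the right of its open points, from Col2a1 at 22660 CPM and more down to Tspan8 at 31.3 to 109 CPM.

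Upstream sequences were read for these 25 genes from the RefSeq promoter table of build GRCm38.p6. Entries were matched by symbol for 18 of them. The 250 bases before the start site were searched on both strands for ACAAAG and ACAATG, letters that Sox proteins bind, which do not overlap each other. They were present in 2 of the 18 genes (11.1%), against 28.2% of 27025 genes in the table. The stretches that hold a match are shown for Chadl and Tspan8, with the match in capitals, and those of Matn1 and Cytl1, the genes with the highest lowest-area ratio in the rule and among the 20, are shown although neither holds a match. Each is written 5′ to 3′ on the strand of the gene.
Chadl, chr15:81697288-81697537, minus strand: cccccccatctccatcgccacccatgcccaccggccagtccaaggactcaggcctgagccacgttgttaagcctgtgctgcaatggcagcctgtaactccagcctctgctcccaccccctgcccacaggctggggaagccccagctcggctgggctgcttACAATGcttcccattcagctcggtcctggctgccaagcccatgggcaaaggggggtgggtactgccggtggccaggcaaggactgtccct
Tspan8, chr10:115817034-115817283, plus strand: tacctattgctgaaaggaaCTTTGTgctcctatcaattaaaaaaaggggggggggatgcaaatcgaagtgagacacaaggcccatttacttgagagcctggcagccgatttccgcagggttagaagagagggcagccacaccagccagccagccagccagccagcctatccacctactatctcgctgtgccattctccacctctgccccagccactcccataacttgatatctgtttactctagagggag
Matn1, chr4:130944135-130944384, plus strand: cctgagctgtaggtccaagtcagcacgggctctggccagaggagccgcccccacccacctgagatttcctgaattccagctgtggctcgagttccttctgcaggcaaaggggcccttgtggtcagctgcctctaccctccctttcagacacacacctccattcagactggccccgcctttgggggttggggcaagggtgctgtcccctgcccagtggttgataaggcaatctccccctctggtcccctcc
Cytl1, chr5:37735269-37735518, plus strand: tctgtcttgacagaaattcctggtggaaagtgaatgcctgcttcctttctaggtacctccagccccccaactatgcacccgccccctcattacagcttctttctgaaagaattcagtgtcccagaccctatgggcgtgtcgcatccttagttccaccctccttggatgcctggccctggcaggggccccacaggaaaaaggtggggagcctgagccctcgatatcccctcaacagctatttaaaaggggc
In Chadl the match began 90 bases before the start site, and in Tspan8 231 bases before it, read on the opposite strand. The stretches of Chadl, Matn1 and Cytl1 ended 1 base short of the gene in the GENCODE annotation of the same build, and that of Tspan8 lay inside the longer gene that GENCODE draws.

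The transcription factors of chondrogenesis stood less far above the other spots than the matrix genes did. Of 14 factors 8 passed the UMI filter and 5 were at least 2-fold higher in all areas. Sox9 read 654, 789, 839 and 625 CPM in the cartilage spots against 194, 191, 200 and 117 CPM in the other spots. Sox5 and Sox6 had median ratios of 2.59 and 2.77, Foxc1, a forkhead factor of skeletal mesenchyme, one of 3.69, and Creb3l2, which drives the secretory pathway, one of 2.44. Nkx3-2, a repressor that keeps chondrocytes immature, and Foxa3 did not pass the filter, with 280 and 301 UMIs in all, and had median ratios of 10.1 and 18.99. Trps1 stood at 1.02, Nfib at 0.714 and Mef2c, which promotes hypertrophy, at 0.629.

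In the signalling list 4 of the 10 genes that passed were at least 2-fold higher, with a median ratio of 1.52. Fgfr3, the receptor that restrains chondrocyte growth, read 280, 152, 214 and 218 CPM against 39.1, 39.2, 42.1 and 55.3 CPM. Ccn2 and Ccn1, matricellular proteins, had median ratios of 6.34 and 2.75, and Nog, a secreted BMP inhibitor, one of 2.95. The receptor of parathyroid hormone-related peptide, Pth1r, stood at 0.995, Fgfr1 at 1.11 and the hedgehog targets Ptch1 and Gli1 at 0.842 and 1.09. The levels of these 4 genes in the cartilage spots lay close to those elsewhere in the head.

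Enzymes that build and sulfate glycosaminoglycan chains were higher in part. Of 17 genes in the files 14 passed, 5 of them at least 2-fold higher, with a median ratio of 1.62. Papss2, which makes the sulfate donor, had ratios from 3.54 to 8.70, and Xylt1, which starts the chains on the core protein, read 152, 146, 117 and 153 CPM against 25.3, 33.1, 23.6 and 35.3 CPM. Chst11, a chondroitin sulfotransferase, had a median ratio of 4.76, Slc35d1, which carries nucleotide sugars into the secretory pathway, one of 3.56, and the sulfate transporter Slc26a2 one of 2.55. Xylt2 and Ext1, the latter an enzyme of heparan sulfate, stood at 1.01 and 0.893. Of 15 genes of collagen folding and secretion 13 passed and 3 were at least 2-fold higher: the prolyl hydroxylase subunit P4ha3 (median ratio 4.37), the lysyl hydroxylase Plod2 (2.93) and Creb3l2. Serpinh1, the collagen chaperone, read 3386, 2368, 2691 and 2927 CPM against 997, 1174, 1471 and 1632 CPM, short of 2-fold in both E15.5 areas.

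Of 4 other programmes, no gene that passed the count filter was 2-fold higher in all 4 areas. This held for the hypertrophic genes (5 of 14 passed the filter), the matrix proteases and inhibitors (5 of 13), the hypoxia and glycolysis genes (5 of 12 in the files) and the cell cycle genes (11 of 16 in the files), with median ratios of 1.23, 1.57, 1.02 and 1.04. The 13 proteases and inhibitors summed to 1351, 1333, 1242 and 1812 CPM in the cartilage spots against 663, 943, 908 and 1368 CPM in the other spots. Ibsp, a bone matrix protein, read 240, 385, 297 and 774 CPM in the cartilage spots against 350, 584, 524 and 1401 CPM in the other spots. Gapdh, which every cell uses, held 6 UMIs in all the cartilage spots, and Pcna held 3, so a value near 0 in these files does not show that a gene is silent. Only Fgf15 and Nes, genes of the developing nervous system, were at least 2-fold lower in all 4 areas (0.0406%), with median ratios of 0.323 and 0.439. The filter asked for at least 20 UMIs in the cartilage spots of each area, so genes scarce there were left out of this count. The counts of higher and lower genes therefore cannot be set against each other. Of 14 genes of perichondrium and fibrous mesenchyme 13 passed and none differed 2-fold in all areas, Col1a1 having a median ratio of 0.756 and Dcn, a small proteoglycan of loose tissue, one of 0.501.

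Spots are mixtures, and RNA typical of other tissues was present in the cartilage spots. The 9 bone markers in the files summed to 7228, 12220, 8396 and 15753 CPM, against 8018, 15675, 12152 and 21945 CPM in the other spots. The 8 skeletal muscle markers summed to 1338, 1168, 645 and 1370 CPM against 1309, 3669, 4329 and 5110 CPM, and the 8 markers of surface and oral epithelium to 483, 437, 367 and 480 CPM against 500, 902, 1300 and 1422 CPM. The sums for bone, muscle and epithelium were lower in the cartilage spots in 3 or more of the 4 areas. The 7 olfactory epithelium markers were higher, at 291, 343, 351 and 213 CPM against 254, 266, 222 and 171 CPM, and so were the 8 markers of nasal respiratory and glandular epithelium, at 34.7, 82.4, 43.1 and 90.5 CPM against 21.6, 40.5, 31.2 and 40.7 CPM. The latter sums are near the floor: 0 of these 8 passed the UMI filter, and 4, 0, 3 and 0 were at 0 in the cartilage spots. The 8 neuron markers summed to 1065, 1832, 2477 and 1107 CPM against 4091, 2731, 2648 and 1329 CPM. The part that these neighbours have in any ratio was not tested.

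The cartilage signal fell off with distance. Spots were sorted by the number of array steps to the nearest cartilage spot, and the cartilage spots themselves by whether 3 or more of their neighbours were cartilage. In E15.5 replicates 2,3,4 the 7 cartilage collagens summed to 43763 CPM in cartilage spots with 3 or more cartilage neighbours, 31471 CPM in those with fewer, and 9484, 4270, 3098 and 1690 CPM at 1, 2, 3 and 4 or more steps. In E14.5 replicates 2,3,4 the same sums were 42822, 33786, 10900, 4579, 3375 and 1414 CPM. These sums include Col2a1 and Col9a1 of the rule, with Col2a1 alone at 25843 CPM in the first zone of E15.5 replicates 2,3,4. The drop from the cartilage spots to the touching spots was the steepest in each area, and part of it is fixed by the rule, which put every spot over the score cut on one side. In E14.5 replicate 1 the 11 spots with 3 or more cartilage neighbours held less than the 24 with fewer, 34655 against 40924 CPM, and in E15.5 replicate 1 only 6 spots had 3 or more.

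Genes of bone followed another course, with their peak beside the cartilage. The bone markers summed to 12916, 21052, 26269, 30444, 28707 and 18596 CPM over the same 6 zones of E15.5 replicates 2,3,4, and were highest at 2 steps in each of the 4 areas. Ibsp read 500, 1286, 2021, 2471, 2366 and 946 CPM in that area, and in E15.5 replicate 1 went from 58.5 CPM in the cartilage spots with the most cartilage neighbours to 1524 CPM at 2 steps. The hypertrophic list, which shares bone genes such as Ibsp, Spp1, Alpl and Sp7, peaked at 2 steps in each area as well, at 1966, 2807, 3422 and 4936 CPM. Skeletal muscle markers were highest at 4 or more steps in 3 of the 4 areas, at 4266, 4932 and 5887 CPM, and lowest there in E14.5 replicate 1, at 1179 CPM.

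**Figure D3:**
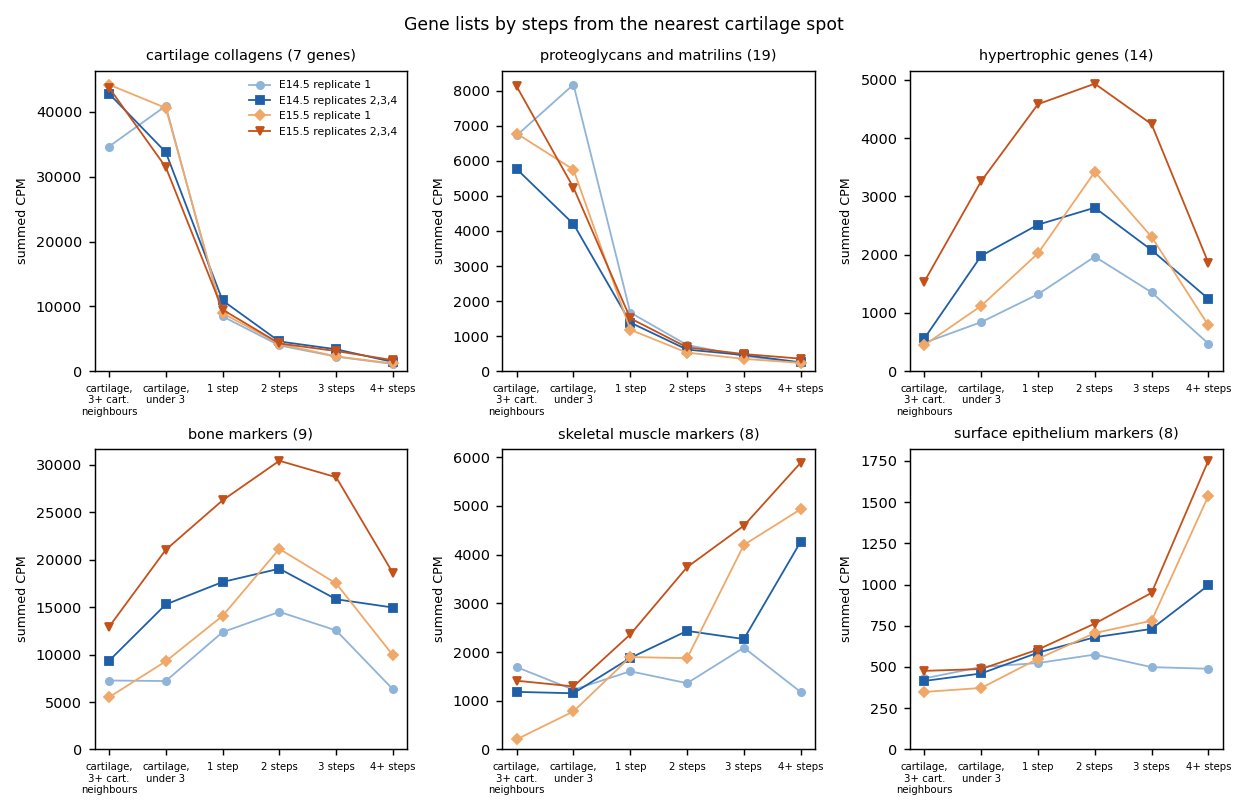
Summed CPM (y) of 6 gene lists over zones by distance from the nearest cartilage spot in array steps (x), with 1 line for each capture area. Cartilage collagens and proteoglycans drop at the first step outside the cartilage, bone markers and hypertrophic genes peak at 2 steps in every area, and muscle and surface epithelium markers are highest at 4 or more steps in all areas but E14.5 replicate 1. The first point of E15.5 replicate 1 rests on 6 spots.

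The 533 other spots that touch a cartilage spot carried cartilage genes above the level of the 5068 farther ones. Of 9245 genes 199 (2.15%) were at least 1.5-fold higher in all 4 areas and 28 (0.303%) at least 1.5-fold lower. Cytl1, first by its lowest ratio, read 49.8, 34.2, 36.1 and 30.2 CPM in the touching spots against 5.27, 3.20, 4.75 and 3.73 CPM farther away. Comp, Matn1 and Clec3a, a lectin of cartilage, had median ratios of 8.56, 8.68 and 8.04. Among the 10 genes named as lower, Dpt, a protein of dermal matrix, and Cma1, a mast cell protease, had median ratios of 0.177 and 0.193, and the skin genes Krt1, Lgals7 and Krt14 ones of 0.349, 0.379 and 0.383.

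Spots whose neighbours under tissue were all cartilage spots are called inner spots here, so that a spot at a tissue edge can count as one. They numbered 1, 1, 0 and 27 in the 4 areas, and the 27 all lay in E15.5 section C. Against the 114 remaining cartilage spots of the same capture area, 514 of 9470 genes (5.43%) were at least 1.5-fold higher and 486 (5.13%) at least 1.5-fold lower, a comparison of 1 area with no replicate. In these inner spots Col8a1, a short-chain collagen, read 160 against 43.9 CPM and Foxd2, a forkhead factor, 70.5 against 19.8 CPM. The 114 include sections A and B and the Hand2 groups of that area, described further on, so place within a patch and section cannot be told apart in these values. With the 600 highest scores, which gave inner spots in 3 areas, Matn1, Matn4, Chadl, Acan and Cytl1 led, Matn1 at 2069, 1527 and 1427 CPM in the inner spots of E14.5 replicate 1, E14.5 replicates 2,3,4 and E15.5 replicates 2,3,4 against 824, 536 and 532 CPM in the outer. Matn1 and Acan are genes of the rule, and inner spots are defined by neighbours chosen on them. Their lead therefore follows in part from the choice of spots and is a description. With that wider choice 37 of 1566 genes (2.36%) were higher and 4 (0.255%) lower, Col1a1 among the latter at a median ratio of 0.560.

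Most patches shared a regional signature. Of 10 transcription factors of the frontonasal region 4 passed the filter, with a median ratio of 2.73, and Six2 and Alx1 were at least 2-fold higher in all 4 areas. Six2 read 756, 876, 668 and 704 CPM against 193, 270, 221 and 254 CPM, and Alx1, needed for midface development, had ratios from 2.79 to 4.23. Of 14 factors of the mandibular arch 4 passed, with a median ratio of 0.780, and 1 was at least 2-fold higher in all 4 areas. Gsc, a homeobox factor of the facial skeleton and a member of this second list, had a median ratio of 3.45. In 17 of the 20 patches Six2 lay between 531 and 1228 CPM, Alx1 between 141 and 649 CPM, Matn1 between 756 and 2166 CPM, and Hand2, a factor of the lower jaw's midline region, between 0 and 85.0 CPM. These patches were found at both stages and in all 8 sections. The 17 leave out 2 patches with over 150 CPM of Hand2 and 1 with no UMI of Six2, both described below. Their ranges of Six2 and Hand2 therefore follow in part from that choice.

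A patch of 6 spots in E14.5 replicate 1 read otherwise. It held 23418 UMIs, with Six2, Alx4, Gsc and Dlx5 at 0 and Matn1 at 342 CPM, while Fmod, a small leucine-rich proteoglycan, read 555 CPM against at most 175 CPM in the 17. At that depth 1 UMI is worth 42.7 CPM, so a zero there is weak.

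A few small groups of cartilage spots held more Hand2. Connected groups of cartilage spots with over 150 CPM of Hand2, a limit set after the values were seen, numbered 11 of the 42 and held 28 spots, 4, 4, 2 and 18 in the 4 areas, or 9.33% of the spots and 9.88% of their UMIs. The call rests on 3, 139, 20 and 239 UMIs of Hand2 in the 4 areas. Over the groups of each area Six2 read 927, 173, 301 and 225 CPM and Matn1 1112, 243, 674 and 391 CPM, so the groups of E14.5 replicate 1, with 3 UMIs of Hand2, lay within the ranges of the 17 patches for both genes. At E15.5, sections A and C had 2 groups each and replicate 1 had 2 single spots. The 4 groups of sections A and C read 226, 292, 169 and 183 CPM of Hand2, with Dlx5, a factor of the lower jaw, at 360, 305, 317 and 349 CPM. In these 4 groups Six2 was low, at 151, 163, 325 and 304 CPM, and so was Matn1, at 422, 345, 432 and 394 CPM, below all of the 17 patches for both genes. Matn4 read 102, 107, 196 and 93.9 CPM, against at least 567 CPM in the 17. Acan, by contrast, read 1305, 969, 887 and 832 CPM and Col2a1 31980, 26529, 36766 and 30103 CPM, beside ranges over the 17 patches of 299 to 1305 CPM for Acan and 11140 to 36314 CPM for Col2a1.

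Most UMIs of Col10a1, Mmp13 and Ihh in the cartilage spots lay in the Hand2 groups. The 14 hypertrophic genes summed to 3830, 7041, 3157 and 8056 CPM there against 617, 935, 827 and 1125 CPM in the remaining cartilage spots. In the Hand2 groups 5, 0, 1 and 0 of the 14 were at 0. Other genes of the list lay less in these groups, with 44.5% of the UMIs of Ibsp, 23.2% of Runx2 and 11.9% of Vegfa. Col10a1, which encodes type X collagen, had 324 UMIs in all the cartilage spots, and 322 of them (99.4%) were in the Hand2 groups. Mmp13, a collagenase of hypertrophic cartilage and bone, had 746 of 789 (94.6%) there, and Ihh, the hedgehog ligand of prehypertrophic chondrocytes, 141 of 199 (70.9%). Within the 4 groups of E15.5, Col10a1 read 613 and 437 CPM in section A and 0 in both groups of section C, Ihh 195, 169, 31.2 and 35.8 CPM, and Mmp13 777, 651, 495 and 492 CPM. So Mmp13 was present in all 4 and Col10a1 in the pair of section A. Pth1r read 817, 822, 459 and 577 CPM, against at most 220 CPM in the 17 patches.

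Summed by area, the same groups carried bone and muscle RNA, but not every group did. The single spot of E14.5 section A had the highest Hand2, at 1814 CPM from 52 UMIs. It read Ibsp at 140, Spp1 at 34.9, Col1a1 at 8161, Mmp13 at 0 and Myh8 at 34.9 CPM, within the ranges of the 17 patches. Over all Hand2 groups of an area the 9 bone markers summed to 18409, 32921, 20004 and 37985 CPM, against 6723, 11098, 7684 and 11940 CPM in the remaining cartilage spots. Col1a1 read 28540, 32022, 31576 and 36677 CPM in the 4 groups of E15.5 sections A and C, above the 17 patches (4925 to 13017 CPM). The 8 muscle markers summed to 4510, 3929, 4354 and 3416 CPM against 1194, 1018, 418 and 1019 CPM, and the osteoclast and macrophage markers to 247, 1691, 222 and 641 CPM against 218, 242, 189 and 281 CPM. No muscle marker was at 0 in any area, while 2, 0, 1 and 0 bone markers and 5, 2, 3 and 2 of the 7 osteoclast and macrophage markers were. The part of these neighbours in the hypertrophic genes was not tested. The 8 neuron markers ran the other way, at 185, 162, 328 and 160 CPM against 1105, 1922, 2609 and 1269 CPM.

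**Figure D4:**
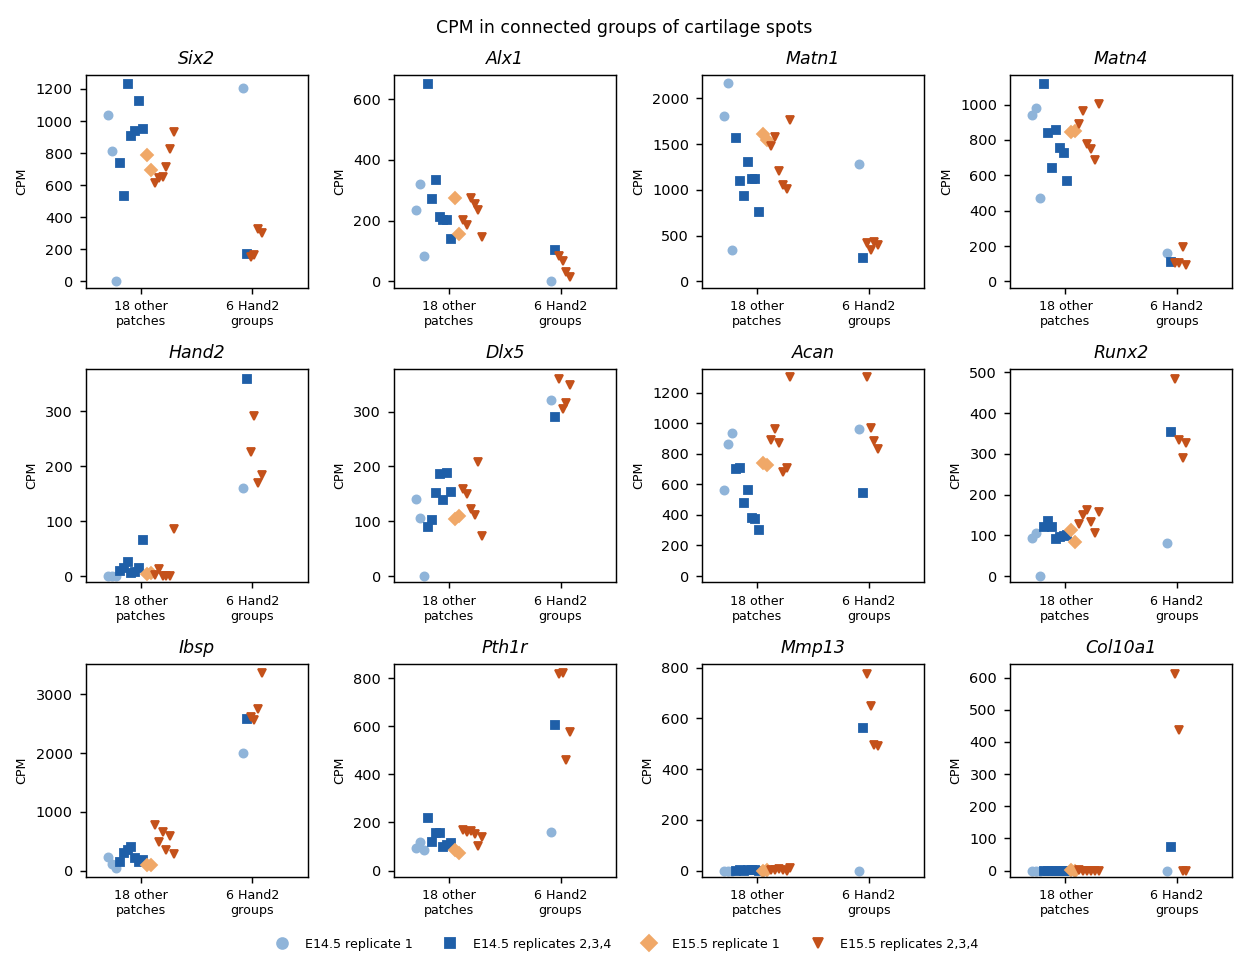
CPM (y) of 12 genes in 18 patches of at least 5 cartilage spots without Hand2 over 150 CPM (left of each panel) and in the 6 Hand2 groups of at least 2 spots (right), coloured by capture area. Hand2 is higher in the 6 Hand2 groups by the limit that defined them. Hand2 groups of a single spot, among them the 1 with the most Hand2 (1814 CPM), are not drawn. Dlx5 and Ibsp are higher in all 6 Hand2 groups than in all 18 patches, and Mmp13 is at 492 to 777 CPM in 5 of the 6. Six2 and Matn1 overlap only through the E14.5 replicate 1 groups, which hold few UMIs.

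Between the stages the level of no gene in the cartilage spots passed the test. The summed UMIs of the cartilage spots were compared between 2 areas at E14.5 and 2 at E15.5 by edgeR's quasi-likelihood test over 12412 genes, and 0 (0%) had a Benjamini-Hochberg adjusted p under 0.1, the smallest adjusted p being 0.999961 (100 had an unadjusted p under 0.05, and DESeq2 called 1 gene, Arhgef25). The median standard error of a log2 change was 0.38. The study's methods speak of biological replicates, but no label ties an area or a section to an embryo, so the p-values measure the spread between these areas, which may be technical. Areas with the same replicate number also share a Space Ranger version and the number of sections they hold, and with that number as a block edgeR called 3 genes in the cartilage spots (Gpi1, Olfm5 and Arhgef25), 184 in the other spots and 171 for the difference between both groups of spots. Leaving out 1 area gave 1 call without either E14.5 area, 9 without E15.5 replicate 1 and 8 without E15.5 replicates 2,3,4, fits in which 1 area stands alone for its stage and is assumed to vary like the other stage. With no test passed, the values that follow are a description.

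No cartilage matrix gene passed the stage test. The median log2 change, E15.5 minus E14.5, was -0.06 over the 7 collagens and -0.05 over the 17 matrix genes tested, against 0.02 over all genes, and 0 of either list was called. Col2a1 had a log2 change of 0.10 (SE 0.25), Acan 0.38 (SE 0.35), Hapln1 0.34 (SE 0.40), Matn1 -0.13 (SE 0.32) and Sox9 0.01 (SE 0.29). Of these only the change of Acan was larger than its standard error. By section Acan read 662, 494 and 341 CPM in sections A, B and C of the shared E14.5 area and 884 CPM in the shallow E14.5 replicate 1, against 721 CPM in E15.5 replicate 1 and 949, 776 and 1240 CPM in sections A, B and C of the shared E15.5 area. All 4 E15.5 sections were above the 3 of the shared E14.5 area, and the stages overlapped through E14.5 replicate 1. Both E15.5 areas were higher than both E14.5 areas for 1 of the 7 collagens and 2 of the 17 matrix genes, where 13.8% of all genes were so placed, and lower for none, where 9.95% were. Comp was among those placed higher, at 350, 390, 423 and 518 CPM, with a log2 change of 0.34 (SE 0.29).

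The hypertrophic list had a median log2 change of 0.54, with 0 genes called. Of its 14 genes 2 were placed higher, close to the 13.8% of all genes so placed. Col10a1 read 0, 4.16, 0.513 and 42.3 CPM, a log2 change of 2.67 (SE 1.22), and Mmp13 0, 20.6, 6.15 and 94.2 CPM, a log2 change of 1.74 (SE 0.96). In both genes E15.5 replicate 1 read below E14.5 replicates 2,3,4, so the stages overlapped and E15.5 replicates 2,3,4 made the difference. Within that area Col10a1 read 167 CPM in section A and 0 in sections B and C, so its level there rested on 1 section. Without E15.5 replicate 1, which leaves 1 area for E15.5, the log2 changes were 3.55 for Col10a1 and 2.59 for Mmp13. Without the Hand2 groups both fell under the count filter and were not tested, and the log2 change of Ihh went from 0.77 (SE 0.68) to -0.29 (SE 0.68) and that of Ibsp from 0.75 (SE 0.43) to 0.44 (SE 0.39). Panx3, a channel of hypertrophic chondrocytes and osteoblasts, read 64.1, 68.4, 80.5 and 149 CPM, and Runx2, the factor that drives hypertrophy and bone, 82.8, 112, 116 and 177 CPM, both without overlap between the stages and with log2 changes of 0.78 (SE 0.36) and 0.55 (SE 0.33). Gdf5, a ligand of joint formation, was low but ordered alike, at 5.34, 8.12, 12.3 and 21.0 CPM.

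The genes with the smallest p were mostly not cartilage genes. Arhgef25, a guanine nucleotide exchange factor, read 232, 218, 60.5 and 21.3 CPM in the cartilage spots, a log2 change of -2.51 (SE 0.45). Its adjusted p was 0.000625 with DESeq2 and, with edgeR, 3.01e-08 with no filter on low counts, 8.06e-05 without E15.5 replicate 1, 1.81e-05 with the replicate block, 0.0116 with sections as samples and 0.0674 with thinned sums. In the other alternatives it was not called, with adjusted p of at least 0.345, and it was lower at E15.5 in every alternative run. In the other spots it read 123, 154, 45.6 and 16.5 CPM, a log2 change of -2.23 (SE 0.46), and it was ordered by stage in the same way. Tmem134 read 77.4, 81.6, 29.2 and 24.6 CPM in the cartilage spots and 63.8, 63.5, 34.6 and 21.3 CPM in the other spots, with log2 changes of -1.59 and -1.25. Both genes were lower in both E15.5 areas than in both E14.5 areas in either group of spots.

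Among the other genes named on the lower side, Six6, Hmx1, Atoh7 and Rax are known from the developing eye and Myh7 and Tnni3 from muscle. Six6 read 29.4, 24.6, 3.59 and 6.44 CPM in the cartilage spots, and 50.3, 42.2, 43.6 and 18.8 CPM in the other spots. Myh7 rested on E14.5 replicate 1, with 344, 48.1, 18.97 and 40.0 CPM. Lhx6, a factor of the upper and lower jaw mesenchyme, read 77.4, 155, 64.6 and 33.0 CPM. On the higher side stood Bpifb5, a secreted protein of the BPI fold family, at 2.67, 1.98, 3.59 and 21.5 CPM, and Sgms2, a sphingomyelin synthase active in skeletal tissue, at 13.4, 26.9, 32.3 and 87.9 CPM. Bpifb5 rested on E15.5 replicates 2,3,4 and Sgms2 was highest there. Apbb3, Ccnc, Auts2, Vps51, Ptp4a1, Sat1, Abcc5 and Bcr made up the higher side, with log2 changes from 0.88 to 1.62.

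**Figure D5:**
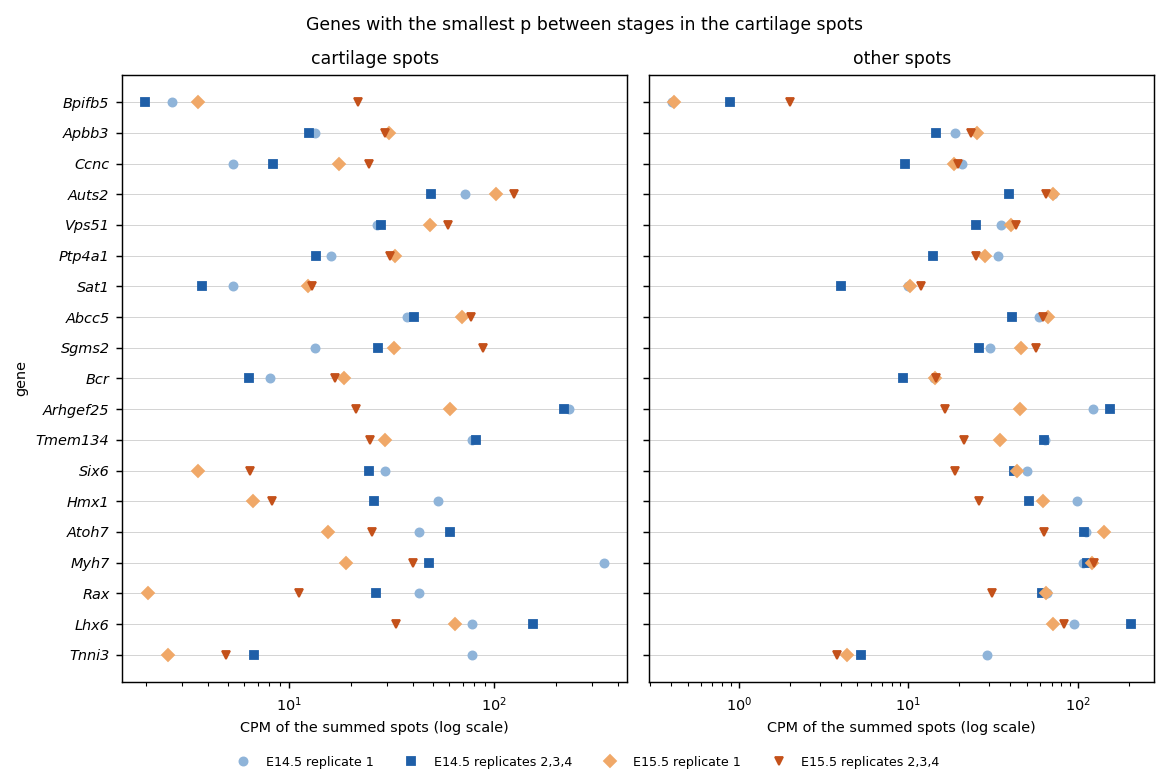
CPM on a log axis (x) of 19 genes with the smallest p between stages among those whose areas do not overlap (y), in the cartilage spots (left) and the other spots (right) of each capture area. Separation of the stages on the left follows from this choice of genes. On the right Arhgef25 and Tmem134 are lower at E15.5 as well, while eye genes such as Six6 and Rax overlap. The edgeR test of the difference in stage change between both groups of spots gave Six6 and Rax adjusted p of 0.799 and 0.803. None passed the adjusted threshold in the cartilage spots.

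Whether the stages differed more in the cartilage spots than in the others was tested with an edgeR model that kept the capture area as a block. Of 14131 genes 0 (0%) had an adjusted p under 0.1, the smallest adjusted p being 0.799 (855 had an unadjusted p under 0.05, and DESeq2 called 0). The count rested on which areas entered, with 278 calls without E14.5 replicate 1, 2120 without E14.5 replicates 2,3,4, 6 without E15.5 replicate 1 and 57 without E15.5 replicates 2,3,4. The other spots alone, over 15473 genes, gave 0 calls (0%) with edgeR, 1038 genes with an unadjusted p under 0.05, and 54 calls with DESeq2. Neurod6 and Neurod2, factors of cortical neurons, had the changes that leaned furthest to the cartilage side among the named genes, at 2.24 (SE 0.47) and 1.94 (SE 0.42), and Neurod2 read 34.7, 33.5, 170 and 29.7 CPM in the cartilage spots, high in E15.5 replicate 1 alone. The lens genes Crybb1, Cryaa and Mip leaned the other way, from -1.17 to -0.94, with 0 UMIs of each in the cartilage spots of E14.5 replicate 1. The other spots of that area held little of them as well, at 1.96, 0.541 and 0.203 CPM. The 10 genes named by this test were Sez6, Syt6, Ttyh1, Neurod6, Neurod2, Crybb1, Irx1, Cryaa, Myom1 and Mip, none of them on a cartilage list.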

How the data were processed

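Spatial expression was measured on 4 Visium capture areas holding 8 coronal sections. Per the labels and the file headers, the authors aligned the probe reads to mm10 and counted UMIs with Space Ranger (1.3.1 where an area held replicate 1, 2.0.0 where it held replicates 2,3,4), and the deposited matrices hold these counts per spot with no normalization. Of 6357 spots under tissue, 456 under 2000 UMIs were left out. Doublets were not called, because each spot covers several cells. The files list 19465 genes, of which 22 share a symbol. Counts of the cartilage spots and of the other spots were summed per area. Because the spots were chosen on their reading, cartilage and other spots were compared as ratios without a test. The stage test set 2 areas against 2 by edgeR's quasi-likelihood fit with TMM factors (edgeR 4.0.16, R 4.3.3, adjusted p under 0.1), with DESeq2 1.42.0 as an alternative, and the scripts were tested on simulated data. Named genes were the 20 with the highest lowest-area ratio, and for each stage test those with the smallest p among genes whose areas did not overlap. In the comparisons of zones and inner spots, the first of the table by lowest ratio were named. The members and lists were chosen with earlier results of these data known. Promoter letters came from RefSeq and gene positions from GENCODE, both on GRCm38. A few genes that these rules named are not reported here.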

Additional observations from a re-analysis of the deposited data

Results flagged for a closer look

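The levels of the cartilage spots were examined within each stage over its 4 sections, 28 groups in all, for 1 section far from the others. The gap of the highest or lowest section, divided by the range of its group, passed Dixon's critical value at 95% in 2 groups, and chance flags about 1 in 20. Cnmd stood out in E14.5 replicate 1, at 1036 CPM, where the other E14.5 sections lay between 712 and 744 CPM. Sox9 stood out in section A of the shared E14.5 area, at 1122 CPM, where the others lay between 654 and 723 CPM. Both are shallow sections, and the part of depth in these values was not tested.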

How the results depend on the processing

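The count of genes past the stage test in the cartilage spots, 0, became 1 with DESeq2, 15 with no filter on low counts, 1 with sums thinned to the smallest total, 2 with sections as samples and 1 to 9 with 1 area left out. In the other spots it went from 0 to 54 with DESeq2 and 0 to 3 with 1 area left out, and for the difference between both groups of spots from 0 to 268 with no filter, 84 with the 150 highest scores and 6 to 2120 with 1 area left out. With the replicate number as a block the counts were 3, 184 and 171. Areas with the same number did not deviate together in the cartilage spots (correlation -0.09, and 0.27 in the other spots), though they share a Space Ranger version and a layout, so the numbers were not taken to pair them. The 97 genes at least 2-fold higher became 98 to 165 with 1 area left out. The chondrogenic factors fell from 5 to 2 with 600 spots, and the tendon and joint genes were 1 to 2 with 1 area left out. The share of cartilage spots at E15.5 was 68% with 150 spots. The count of genes higher in inner spots, 514, became 37 with 600 spots and 0 for 3 or more cartilage neighbours against fewer, an alternative chosen after seeing the data, as were those without the Hand2 groups and without the shallow E14.5 section A. The difference of stage log2 changes ranged from -1.24 to 6.34 for Crybb1, -0.99 to 4.80 for Cryaa and -1.09 to 3.40 for Mip with 1 area left out. These differences were positive without E14.5 replicates 2,3,4, where the remaining E14.5 area had none of their UMIs in cartilage and little in its other spots. The cause of the other changes was not tested. Of 377 further values for stage genes 359 kept their direction and side of the threshold, as did 105 of 153 for the difference, while 217 of 250 ratios moved by less than their spread.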
